A study of Homo sapiens with 16 samples.

Results

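The transcripts described here encode the NF-kappaB transcription factor subunits and the proteins that hold them in check. They are 10 genes, picked by symbol out of 28277 symbols in each of 2 expression tables. The choice was made with earlier results of these data known. The genes are the subunits RELA, RELB, REL, NFKB1 and NFKB2, the inhibitors NFKBIA and NFKBIE, and the upstream brakes TNFAIP3, CYLD and TRAF3. The study repressed KANSL2, which encodes a subunit of the NSL histone acetyltransferase complex, in INA6 and JJN3, both established human cell lines of multiple myeloma, and asked what changes in the cells' RNA. Repression was by CRISPR interference, in which catalytically dead Cas9 joined to a repressor domain (spelled dCas9-CRAB in the study's design text) is led to a gene by a guide RNA. The 4 groups used here were INA6 cells with KANSL2 knockdown, INA6 cells with a non-targeting guide, JJN3 cells with KANSL2 knockdown and JJN3 cells with a non-targeting guide, with 3 libraries each. All 4 groups are labelled as untreated plasma cells and, per the design text, all carry the CRISPR interference system. The sources used here do not give the number of guides or clones behind a group. The labels do not say whether the 3 libraries of a group were separate cultures, so p-values reflect only how far these libraries scatter, a scatter that may be technical. Another 4 JJN3 libraries for chromatin accessibility were not analysed here.

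NF-kappaB proteins act as pairs. RELA, RELB and REL carry the domains that activate transcription, while NFKB1 and NFKB2 are made as long precursors that are trimmed into DNA-binding partners. In resting cells the pairs are held in the cytoplasm by inhibitors such as the products of NFKBIA and NFKBIE, which are destroyed after a kinase complex marks them. A second, alternative route runs through the kinase MAP3K14 and the trimming of the NFKB2 precursor, and TRAF3 keeps it low by bringing MAP3K14 to destruction. TNFAIP3, also called A20, and CYLD remove or edit the ubiquitin chains on which the signal is built. Several of these genes are themselves NF-kappaB targets, so that the pathway restrains itself. In plasma cells and myeloma the pathway is known for promoting survival, and loss of TRAF3, CYLD and TNFAIP3 is known in patients' tumours.

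The values were regularised log (rlog) values on the log2 scale, a transformation of size-factor-scaled counts that pulls noisy genes towards their mean. Differences and percentages of control computed from rlog values may therefore understate a change, to a degree that may differ between genes and lines. Each value is scaled within its library, so a gain or loss of all RNA in a cell leaves no trace, and in such bulk samples fewer cells of a kind and less RNA per cell cannot be told apart. The 2 tables were normalised separately, so every difference below is knockdown minus non-targeting within a line, and no level is compared between lines or between genes. The depth of the libraries is unknown. KANSL2 itself (chromosome 12, 48653211 to 48682238) was at 7.71, 7.60 and 7.76 in INA6 knockdown libraries, against 8.06, 8.02 and 8.16 in INA6 non-targeting libraries, which leaves 76.4% of the control level. It was at 6.00, 5.98 and 6.06 in JJN3 knockdown libraries, against 7.25, 7.24 and 7.19 in JJN3 non-targeting libraries, which leaves 43.1%. All 9 plasma cell markers checked, SDC1 and TNFRSF17 among them, reached the minimum mean of 3 in both lines. In INA6 2 of them rose and 6 fell, and their summed rlog values lay between 105.1 and 106.2 in knockdown libraries and between 108.3 and 108.7 in non-targeting libraries. In JJN3 5 rose and 1 fell, with sums between 101.2 and 101.6 in knockdown libraries and between 99.7 and 100.3 in non-targeting libraries. These counts are at a limma adjusted p below 0.05. Of all genes tested, 24.7% were higher and 24.0% lower in INA6, and 25.5% and 25.5% in JJN3. The sum of the plasma cell markers thus fell in INA6 and rose in JJN3, without overlap of the groups, while single markers went both ways in each line. The part of these markers in the results below was not tested. None of 5 stromal markers reached the minimum mean in either line. Of 5 myeloid markers CD14 alone reached it, and it was not called in either line. Of 5 T and NK cell markers, CD3E, CD8A and NKG7 reached the minimum mean in INA6, where none was called. In JJN3 CD3E alone reached it, and it fell (−0.18, limma adjusted p = 0.0108). The sums of the T and NK cell markers lay between 11.32 and 11.33 in INA6 knockdown and between 11.28 and 11.54 in INA6 non-targeting libraries. In JJN3 they lay between 10.75 and 10.81 in knockdown and between 10.82 and 11.15 in non-targeting libraries. Of 5 B cell markers 2 reached the minimum mean in each line. Among those of JJN3, MS4A1 rose by 0.64 (limma, adjusted p = 1.62e-10), and it was listed at 0 in INA6. The summed rlog values of the B cell markers lay between 7.39 and 7.44 in JJN3 knockdown libraries and between 6.60 and 6.77 in JJN3 non-targeting libraries, and the part of the B, T and NK cell markers in the results below was not tested either.

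All 10 NF-kappaB genes passed the minimum mean in both lines. In INA6, TNFAIP3, REL, RELB, TRAF3 and NFKBIA rose and CYLD fell, so that 6 of 10 were called at a limma adjusted p below 0.05, where 48.6% of the 12511 genes tested were called (24.7% higher and 24.0% lower). In JJN3, NFKBIA, TRAF3, NFKB2 and RELB rose and TNFAIP3 fell, so that 5 of 10 were called, where 51.0% of 12282 genes were (25.5% higher and 25.5% lower). The share of the 10 genes that was called was thus near that of all genes. The median difference of the 10 genes was 0.07 in INA6 and 0.07 in JJN3, against 0.00094 and 0.001 for all genes tested. The median absolute difference was 0.15 in both lines for the 10 genes, against 0.13 in INA6 and 0.12 in JJN3 for all genes. When a difference had to exceed 0.1 in size (limma's treat test), TNFAIP3 and REL passed in INA6, where 24.6% of genes did. In JJN3 NFKBIA, TNFAIP3, TRAF3 and NFKB2 passed this stricter test, where 23.8% of genes did.

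**Figure D1:**
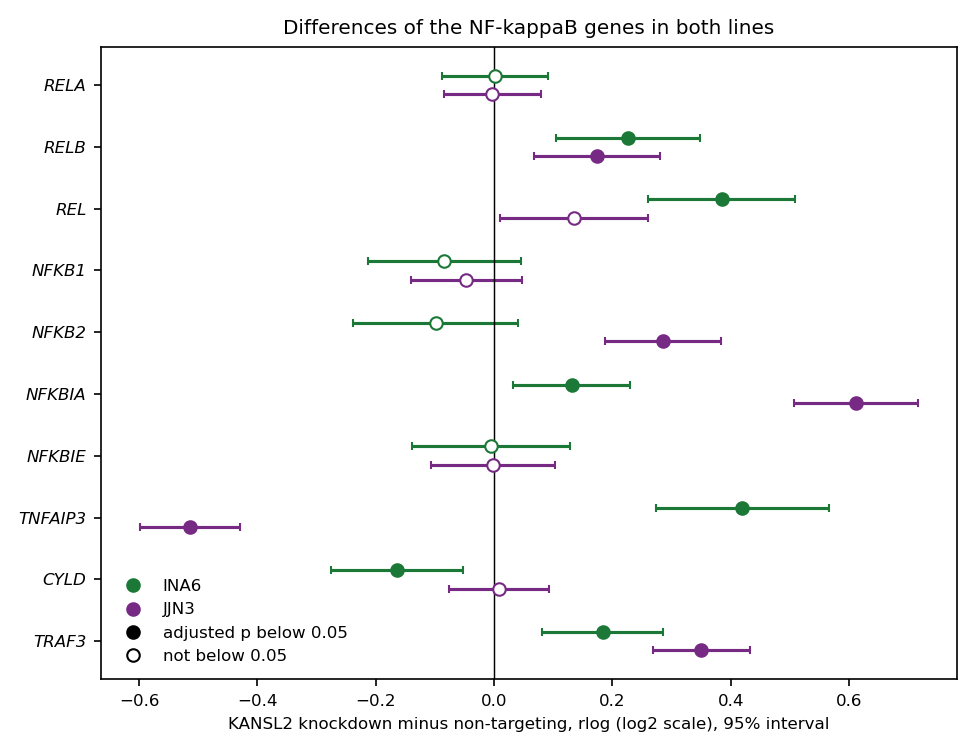
Difference between KANSL2 knockdown and non-targeting libraries for the 10 genes in INA6 (green, upper of each pair) and JJN3 (purple, lower of each pair). The x axis is the difference of mean rlog values (log2 scale), points are the limma estimates from 3 against 3 libraries, bars are 95% intervals and filled points have an adjusted p below 0.05. TNFAIP3 lies at 0.42 in INA6 and at −0.51 in JJN3, while RELA and NFKBIE lie near 0 in both.

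Among the brakes on the pathway, TNFAIP3 moved in opposite directions in the 2 lines. RefSeq's annotation of GRCh38.p14 puts TNFAIP3 at 137866349 to 137883312 of chromosome 6. This is the same build as the hg38 named in the submitters' processing notes. Its rlog value was 7.05, 6.94 and 7.16 in INA6 knockdown libraries, against 6.52, 6.71 and 6.65 in INA6 non-targeting libraries. Every knockdown library lay above every control library. The mean was 7.05 ± 0.110 in knockdown and 6.63 ± 0.0967 in control libraries (SD, n = 3 each), a difference of 0.42 (SE 0.0703, limma adjusted p = 4.83e-05) that corresponds to 134% of the control level. In JJN3 the order was turned round. TNFAIP3 was at 12.25, 12.25 and 12.19 in JJN3 knockdown libraries, against 12.72, 12.84 and 12.67 in JJN3 non-targeting libraries, again without overlap. The mean of 12.23 ± 0.0339 in knockdown and 12.74 ± 0.0859 in control libraries (SD, n = 3 each) gives a difference of −0.51 (SE 0.0416, limma adjusted p = 3.4e-11), or 70.0% of the control level. In absolute size this change exceeded that of 98.2% of the genes tested in JJN3, and 94.2% in INA6. The change in INA6 minus that in JJN3 was 0.93 (SE 0.0817, adjusted p = 2.09e-13 over 11137 genes, of which 30.0% were called).

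NFKBIA, which encodes the inhibitor IkappaB-alpha and is a classical feedback target of NF-kappaB, rose in both lines and by more in JJN3. The gene lies on chromosome 14 from 35401513 to 35404749. It was at 10.03, 10.00 and 10.12 in INA6 knockdown libraries, against 9.89, 9.93 and 9.94 in INA6 non-targeting libraries. The groups did not overlap but lay close, with means of 10.05 ± 0.0626 and 9.92 ± 0.0292 (SD, n = 3 each), a difference of 0.13 (SE 0.0476, limma adjusted p = 0.027). The call did not hold under quantile normalisation (0.08, adjusted p = 0.158), without INA6 non-targeting replicate 1 (0.12, 0.103) or 2 (0.13, 0.0673) and without INA6 knockdown replicate 3 (0.10, 0.106), in a range over all alternatives of 0.00548 to 0.541. In JJN3 NFKBIA was at 9.31, 9.43 and 9.37 in knockdown libraries, against 8.87, 8.71 and 8.69 in non-targeting libraries. All knockdown libraries were clearly above the controls, and non-targeting replicate 1 was the control library nearest to them. Means of 9.37 ± 0.0615 in knockdown and 8.76 ± 0.102 in control libraries (SD, n = 3 each) give a difference of 0.61 (SE 0.0516, limma adjusted p = 7.17e-11), or 153% of the control level. This was the rise of rank 42 among the 12282 genes tested in JJN3. Taken as INA6 minus JJN3, the change was −0.48 (SE 0.0702, adjusted p = 3.37e-07).

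Immediate early genes, which like NFKBIA and TNFAIP3 respond within minutes to stimulation or handling of cells, also differed between the groups. This list of 11 genes was added after the values were seen, and 10 of them were tested in each line. In INA6, 0 rose, also at an unadjusted limma p below 0.05, and 8 fell. Of all genes tested in INA6, 24.7% were higher and 24.0% lower. The list's median rlog value was 9.95, 9.73 and 10.07 in knockdown libraries and 11.64, 11.53 and 11.66 in non-targeting libraries. In JJN3, 4 rose and 3 fell, where 25.5% of all genes tested were higher and 25.5% lower. The list's median there was 9.91, 9.76 and 9.70 in knockdown libraries. It was 9.73, 9.48 and 9.40 in JJN3 non-targeting libraries, where replicate 1 was again highest. Without that control library the JJN3 difference of NFKBIA was 0.67. The part of these genes in the results for NFKBIA and TNFAIP3 was not tested.

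NFKBIE, which encodes the related inhibitor IkappaB-epsilon, showed no detectable change in either line. It lies on chromosome 6 from 44258166 to 44265551. It was at 7.29, 7.34 and 7.46 in INA6 knockdown libraries, against 7.41, 7.39 and 7.30 in INA6 non-targeting libraries. In JJN3 it was at 9.15, 9.14 and 9.30 in knockdown libraries, against 9.26, 9.24 and 9.11 in non-targeting libraries. The groups overlapped in both lines. The difference was −0.0051 in INA6 (95% interval −0.14 to 0.13, limma adjusted p = 0.956) and −0.0013 in JJN3 (95% interval −0.11 to 0.10, adjusted p = 0.985). NFKBIE may still have changed by an amount within those intervals.

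TRAF3, the adaptor that keeps MAP3K14 low, rose in both lines. It lies on chromosome 14 from 102777449 to 102911500. Its rlog value was 10.09, 10.24 and 10.24 in INA6 knockdown libraries, against 9.98, 10.02 and 10.03 in INA6 non-targeting libraries. The lowest knockdown library was just above the highest control. The difference was 0.18 (SE 0.0493, limma adjusted p = 0.00401), with means of 10.19 ± 0.0849 in knockdown and 10.01 ± 0.0271 in control libraries (SD, n = 3 each). In JJN3 the values were 11.34, 11.40 and 11.43 in knockdown libraries, against 11.00, 11.04 and 11.08 in non-targeting libraries. That is a wider gap, with means of 11.39 ± 0.0467 and 11.04 ± 0.0359 (SD, n = 3 each), a difference of 0.35 (SE 0.0404, adjusted p = 2.55e-08) and 127% of the control level. The change in INA6 minus that in JJN3 was −0.17 (SE 0.0637, adjusted p = 0.0406), a call that was lost under 12 of 18 alternatives, where the adjusted p ran from 0.017 to 0.175.

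CYLD, a deubiquitinase and tumour suppressor, fell in INA6. It lies on chromosome 16 from 50742086 to 50801935. It was at 8.93, 8.88 and 8.82 in INA6 knockdown libraries, against 9.01, 9.11 and 9.00 in INA6 non-targeting libraries, and the groups did not overlap. The difference was −0.16 (SE 0.0535, limma adjusted p = 0.0149), or 89.3% of the control level. Median centring of the libraries ended the call (−0.13, adjusted p = 0.0535), as did leaving out INA6 non-targeting replicate 2 (−0.13, 0.1), with all alternatives between 0.00702 and 0.309. In JJN3 CYLD was at 10.13, 10.14 and 10.14 in knockdown libraries, against 10.13, 10.14 and 10.13 in non-targeting libraries. The libraries coincided, with SDs of 0.00364 and 0.00679, and the difference was 0.0083 (95% interval −0.08 to 0.09, adjusted p = 0.882). The change in INA6 minus that in JJN3 was −0.17 (SE 0.0675, adjusted p = 0.0462), which was lost under 14 of 18 alternatives, with adjusted p from 0.0246 to 0.196.

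**Figure D2:**
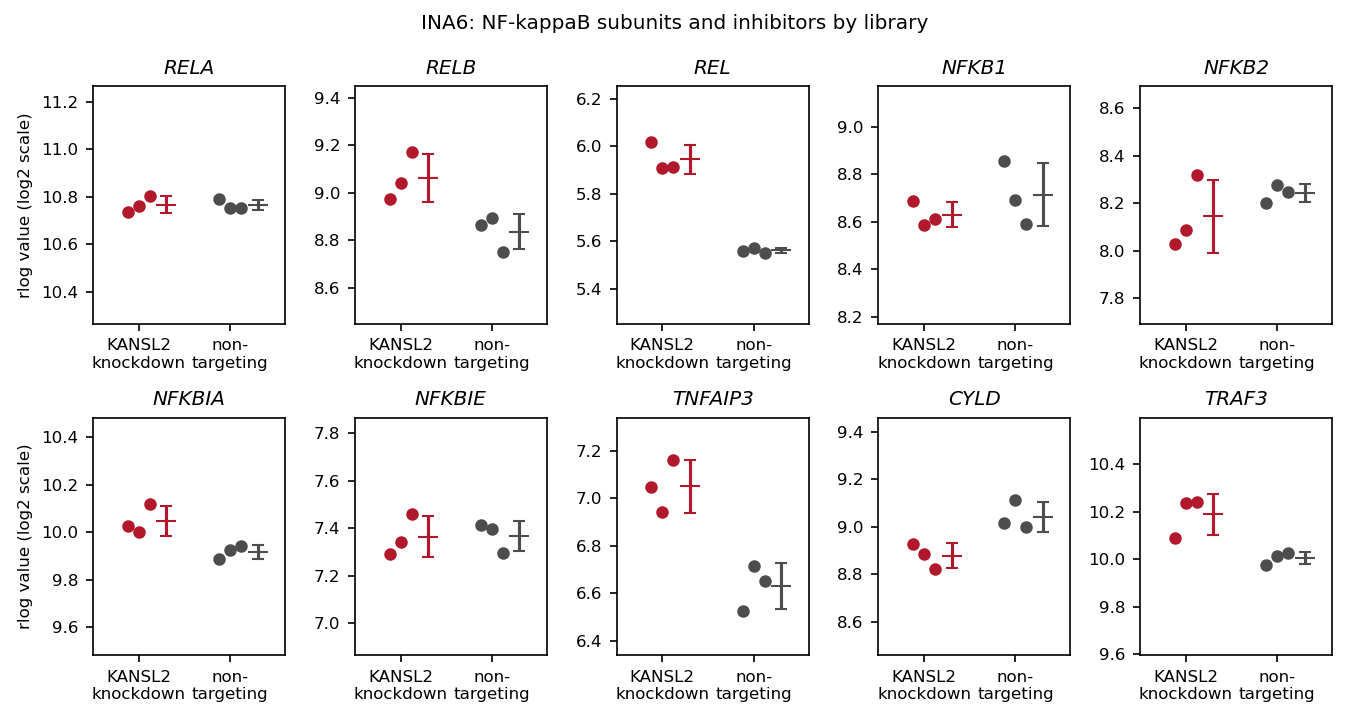
rlog values (y axis, log2 scale) of the 10 genes in the 3 KANSL2 knockdown (red, left) and 3 non-targeting (grey, right) libraries of INA6. Points are libraries, the bar beside them is the mean with its SD, and every panel spans the same height of 1 log2 unit. TNFAIP3, REL, RELB, TRAF3 and NFKBIA have all knockdown points above all control points, CYLD has them below, and the other 4 genes overlap.

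**Figure D3:**
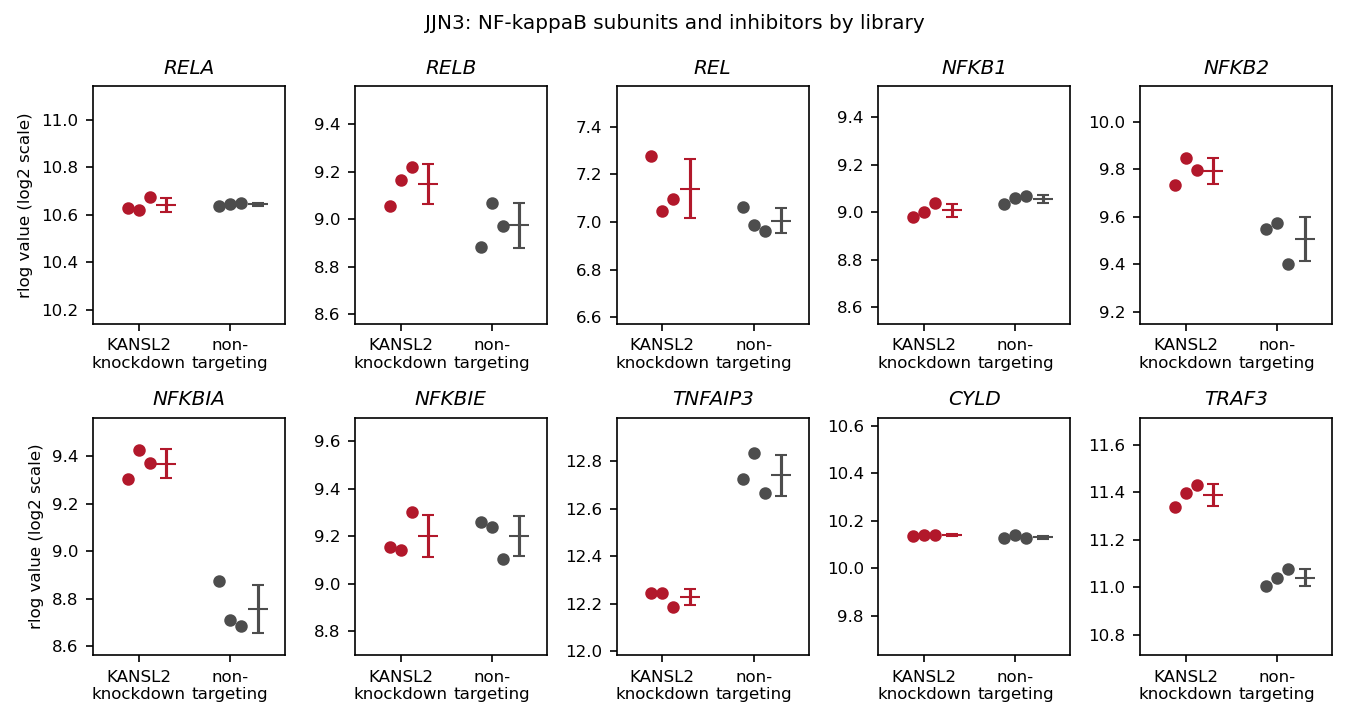
The same plot for JJN3, with rlog values (y axis, log2 scale) of the 3 KANSL2 knockdown (red, left) and 3 non-targeting (grey, right) libraries, the mean and its SD. NFKBIA, NFKB2 and TRAF3 are higher and TNFAIP3 is lower in every knockdown library, while RELB and REL overlap by 1 library and RELA and CYLD coincide.

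Of the 8 genes with a promoter window in the RefSeq table, 7 carry the letters of an NF-kappaB site close to a start. They are TNFAIP3, NFKBIA, NFKB2 and TRAF3, which passed the stricter test in JJN3, and also NFKB1, REL and CYLD, which were not called in JJN3. The promoter windows below, 250 bases before to 50 after a start site, are printed for the first 4 of these genes because NFKBIA and TNFAIP3 both hold such letters and moved in opposite directions in JJN3. They come from RefSeq on GRCh38.p14, at chr6:137867009-137867308 (plus strand) for TNFAIP3, chr14:35404700-35404999 (minus strand) for NFKBIA, chr10:102394328-102394627 (plus strand) for NFKB2 and chr14:102777199-102777498 (plus strand) for TRAF3. For NFKB2, which has 3 start sites in the table, the window with the most matches is shown. Each runs 5′ to 3′ along the gene's strand, and capitals mark matches to the kappaB consensus on either strand. The consensus was GGGRNNYYCC, where R is A or G, Y is C or T and N is any base.
TNFAIP3: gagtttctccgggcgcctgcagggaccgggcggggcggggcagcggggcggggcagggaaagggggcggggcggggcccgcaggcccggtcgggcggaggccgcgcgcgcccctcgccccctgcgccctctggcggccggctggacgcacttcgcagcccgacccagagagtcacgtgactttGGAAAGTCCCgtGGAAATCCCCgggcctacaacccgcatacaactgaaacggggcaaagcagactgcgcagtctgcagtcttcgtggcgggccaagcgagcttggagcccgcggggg
NFKBIA: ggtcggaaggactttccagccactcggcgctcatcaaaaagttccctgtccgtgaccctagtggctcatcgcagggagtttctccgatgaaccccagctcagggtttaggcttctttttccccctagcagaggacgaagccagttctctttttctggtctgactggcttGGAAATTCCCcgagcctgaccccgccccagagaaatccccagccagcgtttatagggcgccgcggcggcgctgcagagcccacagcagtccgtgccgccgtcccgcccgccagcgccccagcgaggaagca
NFKB2: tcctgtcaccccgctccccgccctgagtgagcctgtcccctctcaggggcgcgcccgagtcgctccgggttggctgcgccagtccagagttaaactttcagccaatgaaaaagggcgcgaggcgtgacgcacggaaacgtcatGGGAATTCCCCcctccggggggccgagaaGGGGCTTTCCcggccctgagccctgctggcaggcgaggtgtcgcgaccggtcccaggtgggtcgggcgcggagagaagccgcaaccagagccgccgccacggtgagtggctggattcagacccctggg
TRAF3: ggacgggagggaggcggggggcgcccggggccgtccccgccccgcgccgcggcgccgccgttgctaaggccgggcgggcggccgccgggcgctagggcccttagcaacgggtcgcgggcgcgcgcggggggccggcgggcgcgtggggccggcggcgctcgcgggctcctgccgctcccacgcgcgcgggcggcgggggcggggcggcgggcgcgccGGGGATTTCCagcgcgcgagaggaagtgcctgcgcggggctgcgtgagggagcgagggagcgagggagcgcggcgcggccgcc
TNFAIP3 has matches from position −67 to −58 and from −55 to −46, counted from the start site. NFKBIA has a match from −81 to −72, and TRAF3 has one from −33 to −24. In the window shown, NFKB2 has overlapping matches from −107 to −98 and −106 to −97, and another from −78 to −69. Another NFKB2 window, not shown, has matches from −176 to −167 and from −21 to −12, and the remaining NFKB2 window has none. The 8 genes have 14 start sites in the table, and 9 of those 14 windows held a match, where 11.3% of 34796 windows of all genes did. Windows of 1 gene can overlap and are not independent. A gene with several windows has more chances of a match, and no share counted by gene was computed for all genes. The 14 windows were between 51.3% and 86.0% G and C, where the median of all windows was 58.7%. The matches are letters in a sequence, and no binding was measured here.

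Among the activating subunits, REL and RELB rose in INA6, RELB also rose in JJN3, and RELA did not change detectably in either line. REL, the subunit known best from lymphoid cells, lies on chromosome 2 from 60881574 to 60931612. It was at 6.02, 5.91 and 5.91 in INA6 knockdown libraries, against 5.56, 5.57 and 5.55 in INA6 non-targeting libraries. The groups stood far apart, with means of 5.95 ± 0.0611 and 5.56 ± 0.0103 (SD, n = 3 each). The difference of 0.38 (SE 0.0597, limma adjusted p = 2.07e-05) corresponds to 131% of the control level. In JJN3 REL was at 7.28, 7.04 and 7.10 in knockdown libraries, against 7.06, 6.99 and 6.96 in non-targeting libraries. Knockdown replicate 2 lay below the highest control, and the difference of 0.13 (SE 0.0613, 95% interval 0.0098 to 0.26) had an adjusted p = 0.0664. It passed with median centring (0.16, adjusted p = 0.0271), with quantile normalisation (0.20, 0.00862), without JJN3 non-targeting replicate 1 (0.16, 0.0476) and without JJN3 knockdown replicate 2 (0.18, 0.0301), in a range of 0.00862 to 0.612. As INA6 minus JJN3, this came to 0.25 (SE 0.0856, adjusted p = 0.0219), and 4 of 18 alternatives, each leaving out 1 library, lost it.

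RELB, the partner of the trimmed NFKB2 product in the alternative route, lies on chromosome 19 from 45001464 to 45038192. It was at 8.97, 9.04 and 9.17 in INA6 knockdown libraries, against 8.86, 8.90 and 8.75 in INA6 non-targeting libraries. These did not overlap, and the difference was 0.23 (SE 0.0588, limma adjusted p = 0.00315), or 117% of the control level. In JJN3 it was at 9.06, 9.17 and 9.22 in knockdown libraries, against 8.88, 9.07 and 8.97 in non-targeting libraries. Here 1 control library lay above the lowest knockdown library, and the difference was 0.17 (SE 0.0523, adjusted p = 0.0064). Without JJN3 non-targeting replicate 1 it was 0.13 (adjusted p = 0.0677, in a range of 0.000512 to 0.244). Between the lines the change differed by 0.05 (INA6 minus JJN3) (SE 0.0787, adjusted p = 0.658).

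RELA, the main activating subunit of the canonical route, lies on chromosome 11 from 65653601 to 65663857. It was at 10.74, 10.76 and 10.81 in INA6 knockdown libraries, against 10.79, 10.75 and 10.75 in INA6 non-targeting libraries. In JJN3 it was at 10.63, 10.62 and 10.67 in knockdown libraries, against 10.64, 10.64 and 10.65 in non-targeting libraries. The groups overlapped in both lines. The difference was 0.0018 in INA6 (95% interval −0.09 to 0.09, limma adjusted p = 0.977) and −0.0028 in JJN3 (95% interval −0.08 to 0.08, adjusted p = 0.959). With quantile normalisation the JJN3 value was −0.10 and passed (adjusted p = 0.0295, in a range of 0.0295 to 1).

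Of the precursor subunits, NFKB2 rose in JJN3, and NFKB1 was not called in either line. NFKB2, the precursor of the alternative route and itself a target of the pathway, lies on chromosome 10 from 102394110 to 102402529. It was at 9.74, 9.85 and 9.80 in JJN3 knockdown libraries, against 9.55, 9.58 and 9.40 in JJN3 non-targeting libraries. The groups did not overlap, with means of 9.79 ± 0.0559 and 9.51 ± 0.0930 (SD, n = 3 each), a difference of 0.29 (SE 0.0483, limma adjusted p = 1.26e-05) and 122% of the control level. In INA6 it was at 8.03, 8.09 and 8.32 in knockdown libraries, against 8.20, 8.28 and 8.25 in non-targeting libraries. Knockdown replicate 3 lay above all INA6 controls and the other 2 below them, and the difference was −0.10 (SE 0.0671, 95% interval −0.24 to 0.04, adjusted p = 0.234). Without that library it was −0.19 and passed (adjusted p = 0.0155, in a range of 0.0155 to 0.85). Subtracting the JJN3 change from the INA6 change gave −0.38 (SE 0.0827, adjusted p = 0.000266).

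NFKB1 encodes the precursor of the usual partner of RELA and lies on chromosome 4 from 102501359 to 102617302. It was at 8.69, 8.59 and 8.61 in INA6 knockdown libraries, against 8.85, 8.69 and 8.59 in INA6 non-targeting libraries. In JJN3 it was at 8.98, 9.00 and 9.04 in knockdown libraries, against 9.04, 9.06 and 9.07 in non-targeting libraries. The groups overlapped in both lines, in JJN3 barely so. The difference was −0.08 in INA6 (95% interval −0.21 to 0.05, limma adjusted p = 0.277) and −0.05 in JJN3 (95% interval −0.14 to 0.05, adjusted p = 0.405).

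Across the 10 genes, knockdown and control libraries did not overlap for 6 genes in INA6, where they did not for 55.2% of all genes tested, and for 4 in JJN3, where they did not for 56.1%. The changes of TNFAIP3, NFKBIA, NFKB2, REL, CYLD and TRAF3 differed between the lines, 6 of 10 genes, where 30.0% of genes tested in both lines did. TNFAIP3, NFKBIA and NFKB2 passed this test under all 18 alternatives.

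**Figure D4:**
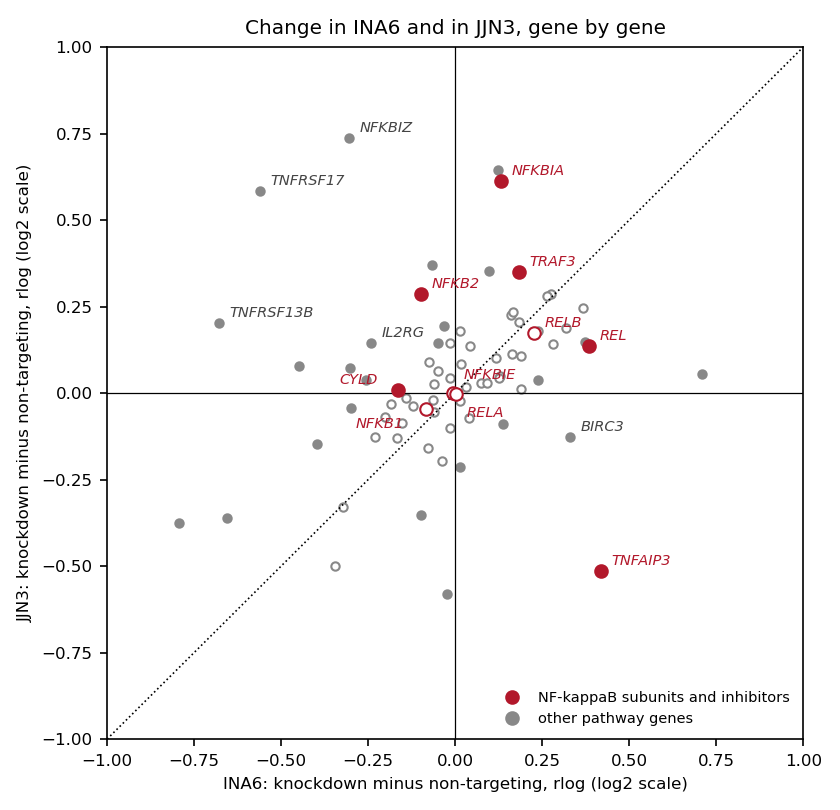
Change on KANSL2 knockdown in INA6 (x axis) against that in JJN3 (y axis), both as differences of mean rlog values on the log2 scale, for the 10 genes (red) and the other pathway genes tested in both lines (grey). Filled points have an adjusted p below 0.05 for the difference between lines, and the dotted line marks equal change. TNFAIP3 lies far below the line, at 0.42 and −0.51, and NFKBIZ, TNFRSF17 and TNFRSF13B lie far above it.

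The other genes of the pathway were read from 6 lists that hold 112 genes and none of the 10. In INA6 74 of them were tested, 23 were under the minimum mean and 15 were listed at 0 in all libraries, and in JJN3 these numbers were 70, 28 and 14. In INA6 18 rose and 22 fell, 54.1% of those tested, and in JJN3 26 rose and 14 fell, 57.1%, where 48.6% and 51.0% of all genes were called. By direction, 24.7% of all genes were higher and 24.0% lower in INA6, and 25.5% and 25.5% in JJN3. Values given for these genes are differences whose standard errors ran from 0.0427 to 0.107 (INA6) and from 0.0395 to 0.0766 (JJN3). All list genes named below as having risen or fallen had a limma adjusted p of at most 0.0441 in INA6 and 0.0354 in JJN3. Over all genes tested, the median difference was 0.00094 in INA6 and 0.001 in JJN3.

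Of the ligands that start the signal, 12 were listed and 1 was tested in each line. TNF, LTA and LTB were listed at 0 in all 6 libraries of both lines, but so was EIF4A1, a translation factor gene that every cell uses, so a 0 in these tables does not show absence. In JJN3 the ligand CD70 rose by 0.24 (SE 0.0485). Of the receptors, 1 rose and 7 fell of 11 tested in INA6 (median −0.21), while 5 rose and 2 fell of 10 tested in JJN3 (median 0.10). The share of receptors called was 72.7% in INA6 and 70.0% in JJN3, where 48.6% and 51.0% of all genes were. TNFRSF17, which encodes BCMA, the receptor for the plasma cell survival factors APRIL and BAFF, fell in INA6 (−0.56) and rose in JJN3 (0.58). Its change in INA6 minus that in JJN3 was −1.14 (SE 0.0601, adjusted p = 8.71e-22). TNFRSF13B, which encodes TACI, the sister receptor for the same factors, fell in INA6 (−0.68) and rose in JJN3 (0.20), and the change in INA6 minus that in JJN3 was −0.88 (adjusted p = 7.57e-13). The TNF receptor gene TNFRSF1B rose in both lines (0.28 in INA6 and 0.28 in JJN3), and IL1RAP, a co-receptor for interleukin 1, fell in both (−0.66 and −0.36). In JJN3 TNFRSF11A, which encodes RANK, rose (0.26) and the interleukin 1 receptor gene IL1R1 fell (−0.14).

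Adaptors and ubiquitin ligases moved both ways, with 6 up and 7 down of 20 in INA6 (median 0.02) and 5 up and 8 down of 20 in JJN3 (median −0.06). That is 65.0% called in each line, where 48.6% of all genes were in INA6 and 51.0% in JJN3. TRAF1, an adaptor that is also a target of NF-kappaB, fell by 0.79 in INA6 and by 0.37 in JJN3. IRAK4, a kinase below interleukin 1 and Toll-like receptors, fell (−0.32 and −0.33) while its partner IRAK1 rose (0.26 and 0.28), as did RIPK1 (0.37 and 0.24), a scaffold kinase of TNF signalling. RBCK1, a subunit of the linear ubiquitin ligase, fell in both lines (−0.40 and −0.15), as did the adaptor gene TRAF5 (−0.34 and −0.50), and MALT1, a paracaspase, rose in JJN3 (0.19). BIRC3, a ubiquitin ligase that works with TRAF3 and is a target of the pathway, followed TNFAIP3 in sign. It was at 7.87, 7.66 and 7.65 in INA6 knockdown libraries, against 7.42, 7.37 and 7.41 in INA6 non-targeting libraries, a rise of 0.33. It was at 12.11, 12.03 and 11.89 in JJN3 knockdown libraries, against 12.17, 12.19 and 12.06 in JJN3 non-targeting libraries, where the groups overlapped and the difference was −0.13. The JJN3 call (limma adjusted p = 0.0215) was lost under 7 of 13 alternatives, with adjusted p from 0.000177 to 0.601. The change in INA6 minus that in JJN3 was 0.46 (adjusted p = 1.08e-05) and passed under all 18.

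Of the activating kinases and their subunits, 2 rose and 1 fell of 11 in INA6 (median −0.04), and 2 rose and 3 fell of 10 in JJN3 (median 0.02). In INA6 CHUK, a subunit of the kinase complex that marks the inhibitors, rose (0.24), as did TBK1 (0.19), and TAB3 fell (−0.26). In JJN3 IKBKB, the other catalytic subunit of that complex, fell (−0.21), as did the upstream kinase MAP3K7 (−0.35) and its partner TAB2 (−0.20), while MAP3K14 (0.15) and IKBKE (0.14) rose. The MAP3K14 call was lost with quantile normalisation (0.08, limma adjusted p = 0.117, in a range of 0.000914 to 0.37).

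Among further inhibitors and cofactors, 3 rose and 6 fell of 15 in INA6 (median −0.06), and 3 rose and 1 fell of 15 in JJN3 (median 0.03). Called were 60.0% in INA6, where 48.6% of all genes were, and 26.7% in JJN3, below the 51.0% of all genes. NFKBIZ, an inducible nuclear cofactor of the IkappaB family, moved in opposite directions in the 2 lines. It was at 8.07, 8.11 and 8.24 in INA6 knockdown libraries, against 8.45, 8.45 and 8.44 in INA6 non-targeting libraries, a difference of −0.30. It was at 8.75, 8.83 and 8.76 in JJN3 knockdown libraries, against 8.36, 7.92 and 7.85 in JJN3 non-targeting libraries, a rise of 0.74. Groups did not overlap in either line, and JJN3 non-targeting replicate 1 was the highest control, as for NFKBIA. The INA6 change less the JJN3 change was −1.04 (SE 0.0961, adjusted p = 1.15e-12). NFKBIB, which encodes IkappaB-beta, rose in both lines (0.37 and 0.15), as did NFKBID (0.16 and 0.23). In INA6 RNF11, a partner of TNFAIP3, rose (0.13), while another such partner, TAX1BP1 (−0.18), and the nuclear cofactor BCL3 (−0.45) fell. In JJN3 PDLIM2, which promotes the breakdown of RELA, fell (−0.58).

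Of known NF-kappaB target genes outside the pathway itself, 6 rose and 1 fell of 16 tested in INA6 (median 0.11). In JJN3 10 rose and 0 fell of 14 (median 0.17), with 0 lower also at an unadjusted limma p below 0.05. Of all genes tested, 24.7% were higher and 24.0% lower in INA6, and 25.5% and 25.5% in JJN3. Among pathway genes named above as targets, TRAF1 (−0.37) and BIRC3 (−0.13) fell in JJN3, and NFKBIA (0.61) and NFKB2 (0.29) rose. Of the same genes in INA6, TRAF1 fell (−0.79), BIRC3 (0.33) and NFKBIA (0.13) rose, and NFKB2 was not called. TNFAIP3, whose promoter window also holds kappaB matches, fell in JJN3 (−0.51) and rose in INA6 (0.42). In INA6 the listed target genes with the smallest p were the chemokine CCL2 (2.02), MARCKSL1 (0.71) and SOD2 (0.32), the mitochondrial superoxide dismutase. In JJN3 they were the stress gene GADD45B (0.64), CFLAR (0.37), which blocks death receptor signalling, and the membrane fusion gene STX11 (0.35). IL2RG, a cytokine receptor subunit, fell in INA6 (−0.24) and rose in JJN3 (0.15), a call that quantile normalisation ended (0.0092, limma adjusted p = 0.864, in a range of 0.00067 to 0.864). The INA6 change less the JJN3 change was −0.39 (adjusted p = 0.000362), and 0.0726 was the adjusted p with quantile normalisation. GADD45B, like NFKBIA and NFKBIZ, was highest among the JJN3 controls in non-targeting replicate 1 (8.95, against 8.62 and 8.59 in the other 2), and without that library its JJN3 difference was 0.76. Of the list genes that the naming rule gave, 23 in INA6 and 27 in JJN3, 5 and 6 lost their call under at least 1 alternative other than the stricter test against 0.1. In INA6 these were IL2RG, NFKBID, RNF11, TAX1BP1 and TBK1, and in JJN3 BIRC3, IKBKE, IL1R1, IL2RG, MAP3K14 and NFKBIB. For TRAF5 in INA6 and RBCK1 in JJN3, named outside that rule, the results under the alternatives were not kept.

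**Figure D5:**
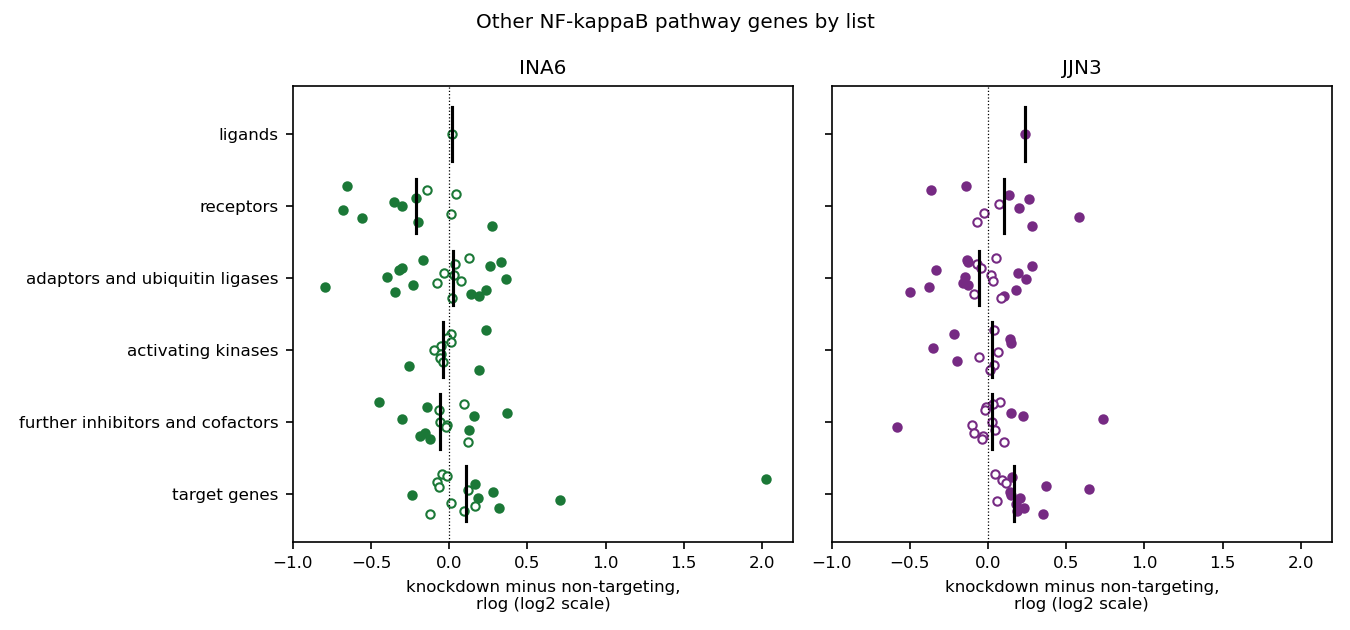
Differences between KANSL2 knockdown and non-targeting libraries (x axis, difference of mean rlog values, log2 scale) of the other pathway genes, grouped by list, in INA6 (left, green) and JJN3 (right, purple). Each point is a gene, filled where its limma adjusted p is below 0.05, and black bars are list medians. The receptors have a median of −0.21 in INA6 and 0.10 in JJN3, and no called gene of the target list lies below 0 in JJN3.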

How the data were processed

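For each line the authors deposited rlog values (log2 scale) of 28277 symbols in 6 libraries, normalised for that line alone. The tools named per the submitters' processing notes are DESeq2, HTSeq, Bowtie2 and Trim Galore, and the build is hg38. Versions, settings, annotation and strandedness are not given in the sources used here, so overlapping genes and near-identical copies are uncertain. The tables hold no counts, so depth is unknown and no counting interval was computed.

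In each line limma 3.58.1 in R 4.3.3 (linear model, moderated variances with a trend on the mean, no block) was fitted to genes whose mean reached 3, and calls needed a two-sided Benjamini-Hochberg adjusted p below 0.05 over all genes tested. Scripts were tested on simulated data. To compare the lines, the JJN3 difference of a gene was taken from its INA6 difference and divided by the combined standard error (both degrees of freedom added), with p adjusted over 11137 genes. An exact permutation test of 3 against 3 cannot go below 0.1 and was not used. No 2 libraries were identical. The 10 genes, the 6 pathway lists and the marker lists were chosen with earlier results of these data known. The text names the 10 genes, KANSL2, the called list genes with the smallest adjusted p (up to 3 per list, direction and line) and list genes called in opposite directions. MS4A1, CD14, CD3E, CD8A, NKG7, EIF4A1, TRAF5 in INA6 and RBCK1 in JJN3 were named after their values were seen. Alternatives were other filters, median centring, quantile normalisation, no variance trend, limma's treat test against 0.1, a replicate block and leaving out each library. Promoter windows of 300 bases were read from RefSeq.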

Additional observations from a re-analysis of the deposited data

Results flagged for a closer look

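The change on KANSL2 knockdown differed between INA6 and JJN3, by a test of the difference itself, for 6 of the 10 genes, where 30.0% of the 11137 genes tested in both lines were called. The number fell to 3 without JJN3 non-targeting replicate 1, JJN3 knockdown replicate 2 or JJN3 knockdown replicate 3. For TNFAIP3 the change in INA6 minus that in JJN3 was 0.93 on the log2 scale, and the changes had opposite signs. For NFKBIA it was −0.48, where both lines rose, and for NFKB2 −0.38, where JJN3 rose and INA6 was not called. For REL it was 0.25, where INA6 rose and JJN3 was not called. For CYLD it was −0.17, where INA6 fell and JJN3 was not called, and for TRAF3 −0.17, where both lines rose. The difference was lost under 14 of 18 alternatives for CYLD, 12 for TRAF3 and 4 for REL. The labels name the lines as separate cell lines and give no batch for these libraries, and KANSL2 was at 76.4% of the control level in INA6 and 43.1% in JJN3, so the line and the depth of the knockdown cannot be told apart. No group has more than 3 libraries, so single libraries were not tested for standing apart.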

How the results depend on the processing

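Calls of TNFAIP3 and REL in INA6, of TNFAIP3, NFKBIA, NFKB2 and TRAF3 in JJN3, and of KANSL2 in both lines held under all 13 alternatives. With treat against 0.1, 3083 genes were called in INA6 and 2929 in JJN3, 2 of the 10 genes in INA6 and 4 in JJN3, and 22 and 18 other pathway genes, while for the difference between lines that test was not run. By list, treat left 8 adaptors, 1 kinase, 3 further inhibitors and 4 targets in INA6, and 4 receptors, 5 adaptors, 2 kinases, 2 further inhibitors and 4 targets in JJN3. Without INA6 non-targeting replicate 2, 4 further inhibitors were called in INA6, and 5 with the replicate block, against 9 in the report. With no minimum mean 2 ligands were called in JJN3. Median centring gave 3904 genes higher and 2400 lower in INA6 (3768 and 2571 in JJN3), against 3084 and 3000 (3135 and 3129) without it. Other pathway genes were then 23 up and 17 down in INA6 and 28 up and 10 down in JJN3. Of the 10 genes, 3 to 6 differed between lines when 1 library was left out, the lowest number without JJN3 non-targeting replicate 1 or JJN3 knockdown replicate 2 or 3, and 4 did with no minimum mean, median centring, quantile normalisation, no variance trend or the block. Leaving out 1 library left 4 to 6 of the 10 genes called in INA6, the lowest number without INA6 non-targeting replicate 2, and 5 to 6 in JJN3.

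Signs turned only for values near 0. NFKBIE was at 0.032 in INA6 and 0.026 in JJN3 with median centring and at 0.055 in INA6 with quantile normalisation. When 1 library was left out it ran from −0.052 to 0.032 in INA6 and from −0.052 to 0.029 in JJN3. RELA was at −0.049 in INA6 with quantile normalisation and at 0.024 in JJN3 with median centring, and from −0.017 to 0.017 in INA6 and −0.019 to 0.0084 in JJN3 when 1 library was left out. CYLD was at −0.057 in JJN3 with quantile normalisation. For the change in INA6 minus that in JJN3, NFKBIE was at 0.0065 with median centring and 0.075 with quantile normalisation. When 1 library was left out this quantity ran from −0.051 to 0.047 for NFKBIE, −0.097 to 0.034 for NFKB1, −0.014 to 0.021 for RELA and −0.0034 to 0.098 for RELB. The causes were not tested.

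Replicate numbers are shared between groups, and the labels do not say whether they pair the libraries. Over all genes tested, same-numbered libraries did not deviate together (correlations −0.179, −0.0678 and −0.296 in INA6 and 0.0045, −0.014 and 0.0019 in JJN3). For differently numbered libraries the correlations ran from −0.0686 to 0.24 in INA6 and from −0.0556 to 0.0637 in JJN3. The highest was between INA6 knockdown replicate 1 and INA6 non-targeting replicate 3. With 3 libraries per group these correlations cannot exclude a pairing. With the replicate block 5626 genes were called in INA6 and 6205 in JJN3, with 5 of the 10 genes in each line, and NFKBIA in INA6 had an adjusted p = 0.0616. The block also lost CYLD and TRAF3 for the difference between lines (adjusted p = 0.0811 and 0.0652). Depth is unknown, and a gene that was not called may still have changed by an amount inside its 95% interval.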
